A study of Macaca mulatta with 20 samples.

Results

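The expression of 7 genes of the complement system, C1QA, C1QB, C1QC, CFB, CFD, C7 and the C5a receptor gene C5AR1, was followed through the life of the rhesus macaque corpus luteum, the progesterone-secreting gland into which a follicle turns after ovulation. The genes were found by symbol: every probe set that the platform's annotation gave to exactly 1 of these symbols was taken, which gave 11 probe sets of the 52707 tested. C1QA had 2, CFB 3, CFD 2 and the others 1 each. In all, 14132 genes had such a probe set. RNA of 20 corpora lutea was hybridised to Affymetrix arrays, 1 array per gland and 4 per stage. All glands came from female monkeys in natural, regular cycles, with stage as the 1 factor varied. Days were counted from the luteinizing hormone surge, whose day was read from serum estradiol, and the 5 stages were early (days 3 to 5, when luteal tissue forms), mid (days 7 to 8, when progesterone output peaks), mid-late (days 10 to 12, still functional), late (days 14 to 16, when progesterone secretion ends) and very-late (days 18 to 19, at menses, when the tissue breaks down). The submitters call the 20 glands biological replicates but the labels name no individual animal and give no age. Values are log2 expression, so that a difference of 1 is a doubling of signal, and the number of arrays limits the precision.

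Complement is a cascade of blood and tissue proteins that marks particles and dying cells for removal. In the classical pathway C1q, assembled from the chains of C1QA, C1QB and C1QC, recognises its target and activates the proteases C1r and C1s. In the alternative pathway factor D (CFD, also known as adipsin) cleaves factor B (CFB), which becomes the protease of the convertase. Both routes lead to cleavage of C5. The larger fragment recruits C6, C7, C8 and C9 into the membrane attack complex, and the smaller, C5a, attracts and activates myeloid cells through C5AR1. Most complement proteins of plasma are made by the liver, whereas macrophages are a known source of C1q in tissues. In the RefSeq table of assembly T2T-MMU8v2.0, C1QB, C1QC and C1QA are neighbouring protein-coding genes in this order, CFB lies between NELFE and C2, CFD between ELANE and MED16, and C5AR1 beside C5AR2, a second receptor for C5a. The build behind the array is not given in the sources used here, and no position is printed.

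A few arrays deserve mention before the results. The excess of 3' over 5' signal of GAPDH, a measure of RNA integrity, was 2.70 log2 units on very-late replicate 1 and 0.83 to 1.78 on the remaining 19 arrays, whereas for actin the same replicate (0.12) was inside the range of the rest. Against the other 3 arrays of its stage, very-late replicate 2 correlated at r = 0.973 across probe sets, the lowest of the 20 arrays, whose highest was 0.996. The mean of 4 mitochondrial probe sets split the arrays, with 13 high (12.59 to 13.58) and 7 low (6.06 to 8.50). The low ones comprised every mid gland, early replicate 4, the first mid-late replicate and very-late replicate 2. With this group in the model, 19 rather than 191 probe sets passed from early to mid. As every mid gland was low and early replicate 4 the only low early gland, group and stage can hardly be told apart there. The steroid synthesis gene STAR, which marks luteal cells, was at means of 13.19 to 13.36 over the first 4 stages and 9.15 ± 1.26 (SD, n = 4) at the very-late stage. The other measured genes of the luteal steroid list changed before that stage, in opposite directions. From early to late HSD3B2 fell by 2.65 ± 0.37 (SE; limma, adjusted p = 0.000324) and CYP19A1 rose by 2.03 ± 0.47 (adjusted p = 0.011).

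In their stage means, the 7 genes parted into 2 patterns at the end of luteal life. C5AR1, CFD, CFB and C7 had their highest stage means in the very-late gland, each with all 4 arrays above every array of every other stage. The C1q chains had reached their highest means by the late gland, C1QB with an equal mean at very-late, and their very-late arrays were split, replicates 3 and 4 high and replicates 1 and 2 lower. As given above, replicate 1 had the highest GAPDH measure, and replicate 2 the lowest correlation with its stage and a low mitochondrial signal. In limma's F test for any difference between the 5 stages, 7 of the 11 probe sets passed at an adjusted p under 0.05 (Benjamini-Hochberg over all probe sets), where 21.5% of all probe sets did. By each gene's representative probe set, the one with the highest mean over the 20 arrays, 5 of the 7 genes passed, where 33.6% of 14132 genes did. The ranges of stage means of these 5 ran from 1.76 (C1QB) to 3.76 (C5AR1). By representative probe sets, neither C7 nor any C1q chain passed from late to very-late. In limma's test the adjusted p was 0.189 for C7 and 0.0942 to 0.996 for the chains.

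**Figure D1:**
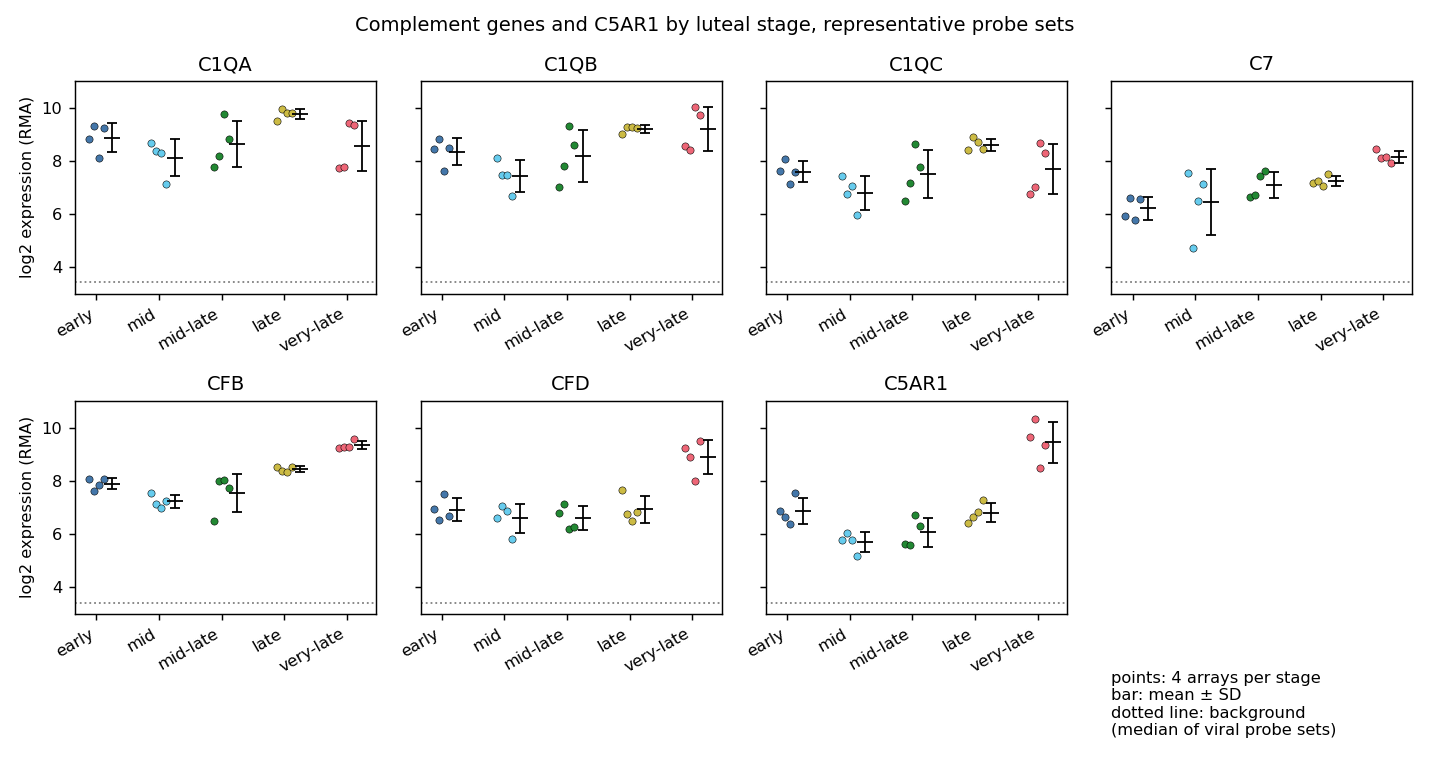
Log2 expression (vertical axis) of the representative probe set of each gene at the 5 luteal stages (horizontal axis), with 1 point per array, the mean and SD of 4 arrays as a bar beside them and the background of 3.42 as a dotted line. C5AR1, CFD and CFB stand highest at the very-late stage, while the very-late arrays of the C1q chains are split between values near those of the late stage and lower ones.

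C1QB, the B chain of C1q, had its lowest mean at the mid stage and its highest at the late and very-late stages. Its 4 early arrays were at 8.43, 8.80, 7.62 and 8.49, and its 4 mid arrays at 8.12, 7.48, 7.48 and 6.66. At mid-late they were at 7.01, 7.81, 9.29 and 8.59, and at the late stage at 9.0, 9.28, 9.28 and 9.22. The late arrays lay above all early and all mid arrays, and the mid-late arrays spread over both ranges. In the very-late gland the values were 8.57, 8.41, 10.04 and 9.73, so replicates 3 and 4 exceeded every other array of the study and replicates 1 and 2 lay below all late arrays. C1QB passed limma's F test (adjusted p = 0.0220). Between very-late and late, however, its means were both 9.19, a difference of -0.01 ± 0.44 (SE), with a 95% interval from -0.93 to 0.92 (adjusted p = 0.996). The F test no longer passed without mid replicate 4 (adjusted p = 0.0623). It also did not pass when the mitochondrial group of each array entered the model (adjusted p = 0.212), an alternative chosen after seeing the data. All mid arrays were in the low group, so this model can hardly separate the mid stage from the group.

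C1QC, the C chain, resembled C1QB up to the late stage. It was at 7.60 ± 0.38 (SD, n = 4) at the early stage, 6.80 ± 0.64 at mid, 7.51 ± 0.91 at mid-late and 8.61 ± 0.23 at late. Its very-late arrays were at 6.76, 7.03, 8.67 and 8.29, a mean of 7.69 ± 0.93, and again replicates 1 and 2 were the low ones. C1QC did not pass the F test (adjusted p = 0.0612). Late minus early was 1.01 ± 0.44 (SE), with every late array above every early one, and also did not pass over all probe sets (limma, adjusted p = 0.211). In a fit on the 8 arrays of these stages alone it passed (adjusted p = 0.0133), as did C1QB (0.86, adjusted p = 0.0429).

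C1QA, the A chain, was read by probe sets that went different ways. The brighter, MmuSTS.1957.1.S1_at, here called probe set 1, followed the other chains: 8.87 ± 0.55 (SD, n = 4) at early, 8.11 ± 0.69 at mid, 8.63 ± 0.86 at mid-late and 9.77 ± 0.18 at late. Its very-late arrays were at 7.71, 7.75, 9.42 and 9.33, all below the 4 late arrays. The difference between very-late and late was -1.22 ± 0.46 (SE), with a 95% interval from -2.18 to -0.25, and did not pass limma's test over all probe sets (adjusted p = 0.0942). Probe set 1 did not pass the F test either (adjusted p = 0.0979).

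The dimmer probe set of C1QA, MmugDNA.2736.1.S1_at, here called probe set 2, was high through the functional stages and low at both ends. Its early arrays were at 6.28, 7.31, 5.77 and 5.92, and its mid arrays at 8.02, 7.12, 8.27 and 7.94. It stayed near this level at mid-late (7.76 ± 0.29, SD, n = 4) and late (7.83 ± 0.40). At the very-late stage the arrays were at 5.19, 6.38, 5.60 and 6.1, all below every late array. Probe set 2 rose by 1.44 ± 0.33 (SE) from early to mid-late (limma, adjusted p = 0.0195) and by 1.51 ± 0.33 from early to late (adjusted p = 0.00760), and fell by 2.02 ± 0.33 from late to very-late (adjusted p = 0.000289), a 4.04-fold change. The rise to mid-late failed without early replicate 3 or 4 or mid-late replicate 1 or 2 (adjusted p up to 0.0739), and on the 13 arrays of the high mitochondrial group (1.30, adjusted p = 0.0857). Over the 20 arrays its Pearson correlation with probe set 1 of the same gene was 0.12, against 0.83 between probe set 1 and C1QB, 0.96 between probe set 1 and C1QC and 0.91 between C1QB and C1QC. These arrays share stages, so the correlations describe the profiles and carry no test. The C1QA level thus depends on the probe set, and which of them reads the C1QA transcript was not tested.

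Between glands of 1 stage, the C1q chains kept nearly the same order. By probe set 1 of C1QA with C1QB and C1QC, the array that was lowest was the same for all 3 chains in 4 of the 5 stages, and so was the array that was highest in 4 of the 5. In the mid-late group replicate 1 was lowest and replicate 3 highest for each chain, a spread of 7.09 to 9.22 in the mean of the 3 chains. The late glands were the most alike, from 8.97 to 9.37.

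Factor B (CFB), on its brightest probe set, was lowest at mid and rose to its highest level at very-late. The 4 early arrays were at 8.05, 7.60, 7.85 and 8.08, and the mid arrays, all lower, at 7.56, 7.14, 6.97 and 7.24. At mid-late they were at 6.5, 7.99, 8.02 and 7.72, with replicate 1 the lowest array of the study. The late arrays stood at 8.53, 8.38, 8.32 and 8.52, above every earlier array, and the very-late arrays at 9.23, 9.28, 9.26 and 9.56, above every late one. CFB rose by 1.44 ± 0.24 (SE) from early to very-late (limma, adjusted p = 0.000246), a 2.71-fold change, and by 0.90 ± 0.24 from late to very-late (adjusted p = 0.0159). Without very-late replicates 1 and 2 the second difference was 0.98 and no longer passed (adjusted p = 0.0596), and within the 13 arrays of the high mitochondrial group it was 0.91 (adjusted p = 0.000314). Mid minus early was -0.67 ± 0.24, with no overlap between the groups, and did not pass (adjusted p = 0.270).

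The other probe sets of CFB gave little signal. Probe set 2 lay at stage means of 4.09 to 4.69 and probe set 3 at 3.50 to 3.79, where the background, taken as the median of 683 probe sets for viral genomes, was 3.42 and their 95th percentile 4.30. Neither passed the F test (adjusted p = 0.514 and 0.768), and their Pearson correlations with probe set 1 were 0.07 and 0.03. Early replicate 1 stood out on both, at 6.15 on probe set 2 and 4.68 on probe set 3, while on probe set 1 it lay at 8.05 among the other early arrays.

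Factor D (CFD) had similar means up to the late stage and rose at the very-late stage, on both of its probe sets. On probe set 1 the early arrays were at 6.95, 6.52, 7.51 and 6.69 and the late arrays at 7.64, 6.76, 6.48 and 6.82. The very-late arrays were at 9.23, 8.90, 7.99 and 9.48, all above every array of the other stages. The rise from late to very-late was 1.98 ± 0.34 (SE; limma, adjusted p = 0.000521), 3.94-fold, and that from early 1.98 ± 0.34 (adjusted p = 0.000343). Probe set 2 was dimmer, at 4.78 ± 0.35 (SD, n = 4) in the late and 7.15 ± 0.89 in the very-late gland, and rose by 2.37 ± 0.36 (SE; adjusted p = 0.000167). The probe sets correlated at 0.97 over the 20 arrays, and very-late replicate 3 was the lowest very-late array on both (7.99 and 5.88). Late minus early was 0.01 on both, with 95% intervals from -0.71 to 0.73 and from -0.75 to 0.78.

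**Figure D2:**
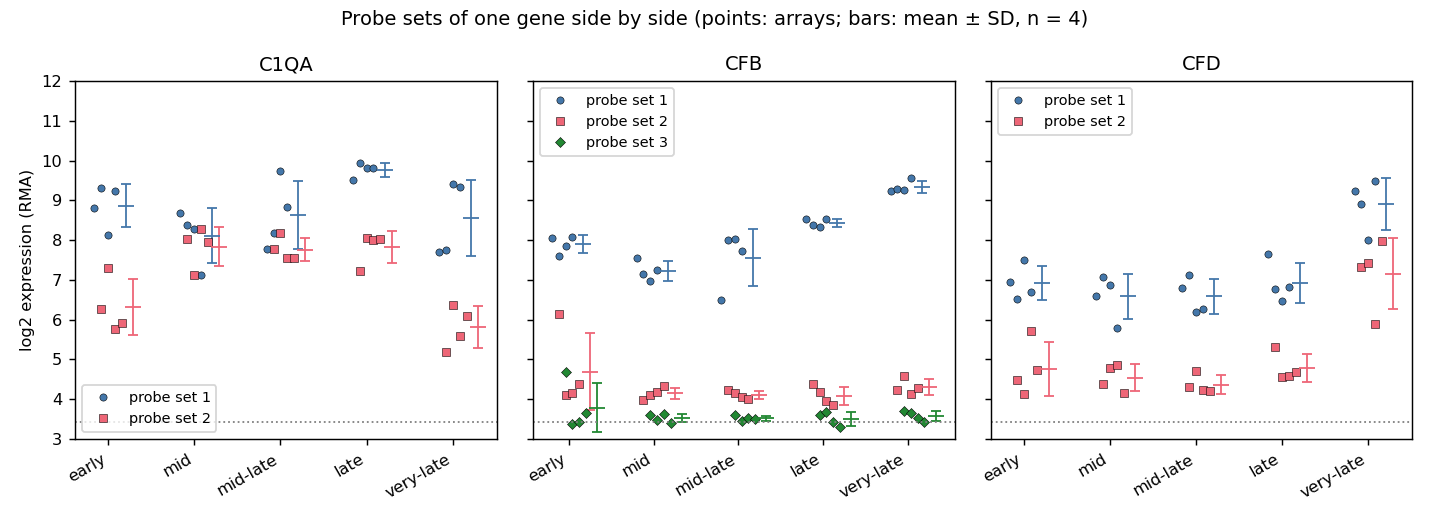
Log2 expression (vertical axis) of every probe set of C1QA, CFB and CFD at the 5 stages (horizontal axis), with points for arrays, bars for the mean and SD of 4 arrays and a dotted line for the background of 3.42. The probe sets of CFD run in parallel, those of C1QA differ in the stages at which they are high, and probe sets 2 and 3 of CFB stay near the background apart from early replicate 1.

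C7, which joins the growing membrane attack complex, was lowest at early and highest at very-late. Its early arrays were at 5.92, 6.61, 5.76 and 6.57. The mid arrays had the widest spread of any stage, 7.53, 4.70, 6.49 and 7.11, with replicate 2 the lowest array of the study. The gene stood at 7.09 ± 0.50 (SD, n = 4) at mid-late and 7.23 ± 0.18 at late, and the very-late arrays were at 8.43, 8.11, 8.15 and 7.90, above every other array. C7 rose by 1.93 ± 0.42 (SE) from early to very-late (limma, adjusted p = 0.00268), 3.82-fold. The last step, very-late minus late, was 0.91 ± 0.42 and did not pass (adjusted p = 0.189), although the groups did not overlap. Without mid replicate 2 alone this step passed (adjusted p = 0.0211), as it did on the 8 arrays of the 2 stages (adjusted p = 0.00409). It also passed on the 13 arrays of the high mitochondrial group, which leave out that low mid array (0.93, adjusted p = 0.0229). Late minus early was 1.02 ± 0.42 in the full fit (adjusted p = 0.178). It passed without mid replicate 2 (adjusted p = 0.0189) and on the 13 arrays (1.14, adjusted p = 0.0133).

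C5AR1, the receptor of C5a, had the largest change of the 7 genes. It was at 6.85, 6.64, 6.38 and 7.53 on the early arrays and at 5.79, 6.05, 5.78 and 5.16 on the mid arrays, all lower. At mid-late it stood at 5.64, 5.60, 6.72 and 6.30, and at late, inside the range of the early arrays, at 6.43, 6.65, 6.82 and 7.27. The very-late arrays were at 9.66, 10.32, 8.48 and 9.35, each above every array of the other stages. C5AR1 rose by 2.66 ± 0.34 (SE) from late to very-late (limma, adjusted p = 2.80e-05), 6.33-fold, and by 2.61 ± 0.34 from early (adjusted p = 2.21e-05). Mid minus early was -1.16 ± 0.34, with no overlap, and did not pass (adjusted p = 0.164). Replicates 1 and 2 were the highest very-late arrays, the reverse of the C1q chains. Without them the rise from late was 2.13 and still passed (adjusted p = 0.000937). C5AR2 had stage means of 3.38 to 3.57, near the background, and did not pass the F test (adjusted p = 0.196).

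Read by comparison, the tests of the complement genes passed almost only at the very-late stage. From late to very-late 5 of the 11 probe sets passed, where 13.8% of all probe sets did: 4 rose (CFB probe set 1, both of CFD, and C5AR1), against 6.75% of all, and 1 fell (C1QA probe set 2), against 7.03%. From early to very-late 5 passed, all higher, where 18.7% of all probe sets passed and 9.45% were higher. The median difference of the 7 genes was 0.90 from late and 1.44 from early, against 0.01 and -0.01 over 14132 genes. These comparisons share the very-late arrays. From early to late, and from early to mid-late, 1 of 11 passed, C1QA probe set 2, where 7.58% and 3.73% of all probe sets did (3.61% and 1.62% higher). The late and early arrays did not overlap for 5 of the 11, against 13.7% of all probe sets, and the very-late and late arrays for 7, against 15.2%.

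The other comparisons gave no call in limma's fit. From early to mid 0 of 11 passed, with 3 at an unadjusted p under 0.05, where 0.362% of all probe sets passed. The groups did not overlap for 2 of the 11, CFB probe set 1 and C5AR1, against 6.24% of all. The median difference of the 7 genes was -0.76 (-0.02 over all genes), C7 being the only gene whose representative probe set was not lower in its mean. From mid to mid-late 0 passed and none had an unadjusted p under 0.05, and from mid-late to late 0 passed with 5 at an unadjusted p under 0.05. In each of these 0.0114% of all probe sets passed. From mid-late to late the median difference of the 7 genes was 0.88 (0.00 over all genes). In the fit on the 8 arrays of the early and late stages alone, 5 probe sets passed from early to late: C1QA probe set 2, C1QB, C1QC, C7 and CFB probe set 1, where 8.3% of all probe sets did.

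**Figure D3:**
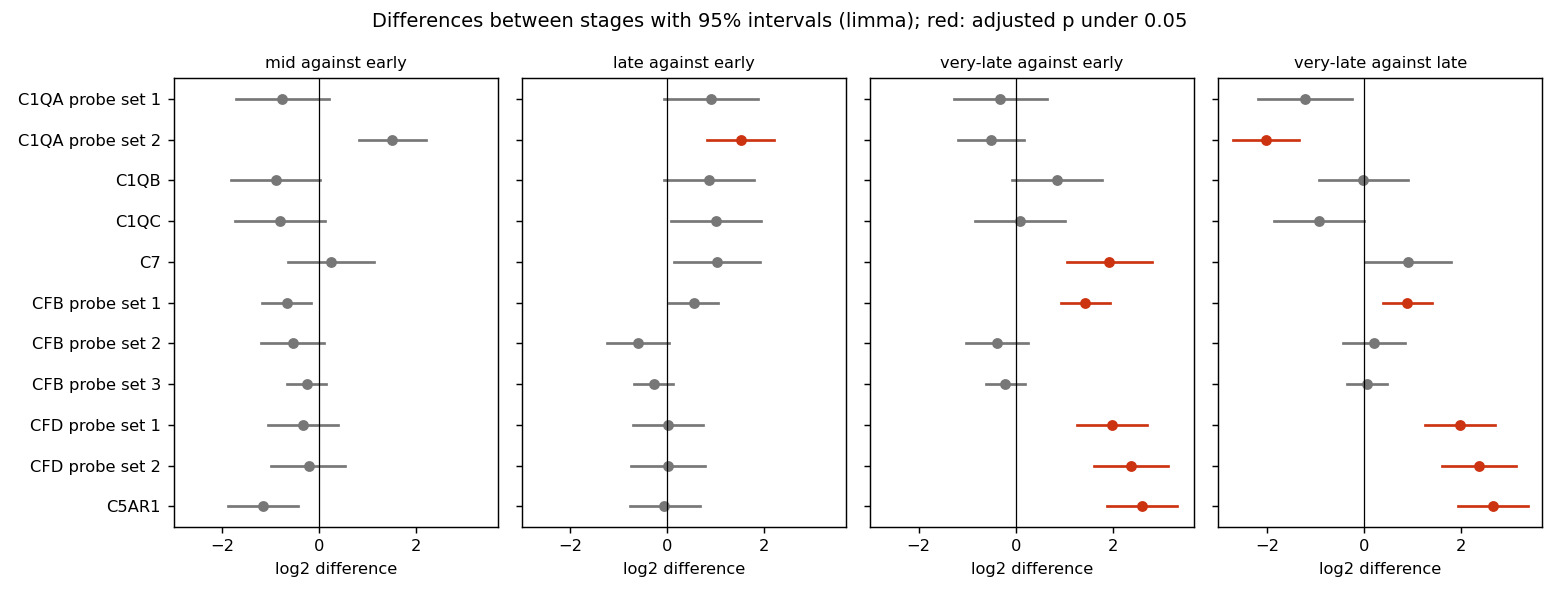
Differences of log2 stage means (horizontal axis) with 95% intervals from limma for the 11 probe sets (vertical axis) in 4 comparisons, in red where the adjusted p over all probe sets was under 0.05. The 5 red intervals of very-late against early all lie above 0, and in very-late against late C1QA probe set 2 is the red interval below 0.

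The mean of the macrophage markers was lowest at mid and highest at very-late, as were C5AR1 and CFB probe set 1. The means of the C1q chains did not rise from late to very-late with the markers. In bulk tissue, fewer cells of a type and less RNA per cell cannot be told apart. Of 15 markers listed, 13 were measured, and their mean level per array lay at 6.56 to 6.80 at early, 5.88 to 6.25 at mid, 5.82 to 7.11 at mid-late, 6.97 to 7.57 at late and 8.72 to 9.40 at very-late. From late to very-late 8 of the 13 rose, where 21.4% of genes passed, with a median difference of 1.67 over the list. CYBB, a subunit of the phagocyte oxidase, rose by 3.54 ± 0.33 (SE; limma, adjusted p = 6.75e-07). TYROBP, the signalling adaptor of myeloid receptors, rose by 2.76 ± 0.31 (adjusted p = 5.85e-06). LYZ, lysozyme, was at 10.37 ± 0.84 (SD, n = 4) at late and 11.66 ± 0.21 at very-late and did not pass (adjusted p = 0.0772). The lowest marker levels, on mid-late replicate 1 (5.82) and mid replicate 4 (5.88), went with the lowest means of the 3 C1q chains (7.09 and 6.57). In the very-late gland the markers were highest on all 4 arrays and the C1q mean was 7.68, 7.73, 9.38 and 9.12.

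The macrophage markers themselves differed in size of change from late to very-late. CD68, a lysosomal protein of macrophages, rose by 2.70 ± 0.27 (SE; limma, adjusted p = 1.84e-06), beside 2.66 for C5AR1. This was the brighter probe set of CD68, and only 1 of its 2 passed the F test. Other markers changed less, and 3 that did not pass were CSF1R, the receptor of a macrophage growth factor (0.66, adjusted p = 0.153), FOLR2, a folate receptor of tissue macrophages (0.22, adjusted p = 0.736), and the mannose receptor MRC1 (0.04, adjusted p = 0.879). MRC1 was read by the brightest of its 3 probe sets, which did not pass the F test (adjusted p = 0.532), whereas 2 of the 3 did. Beside these markers stood -0.01 for C1QB, -0.92 for C1QC and -1.22 for C1QA probe set 1. How C1q changed relative to macrophage content thus depends on the marker taken, and was not tested. Whether the GAPDH measure of replicate 1 or the mitochondrial signal of replicate 2 has a part in their low C1q values was not tested.

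**Figure D4:**
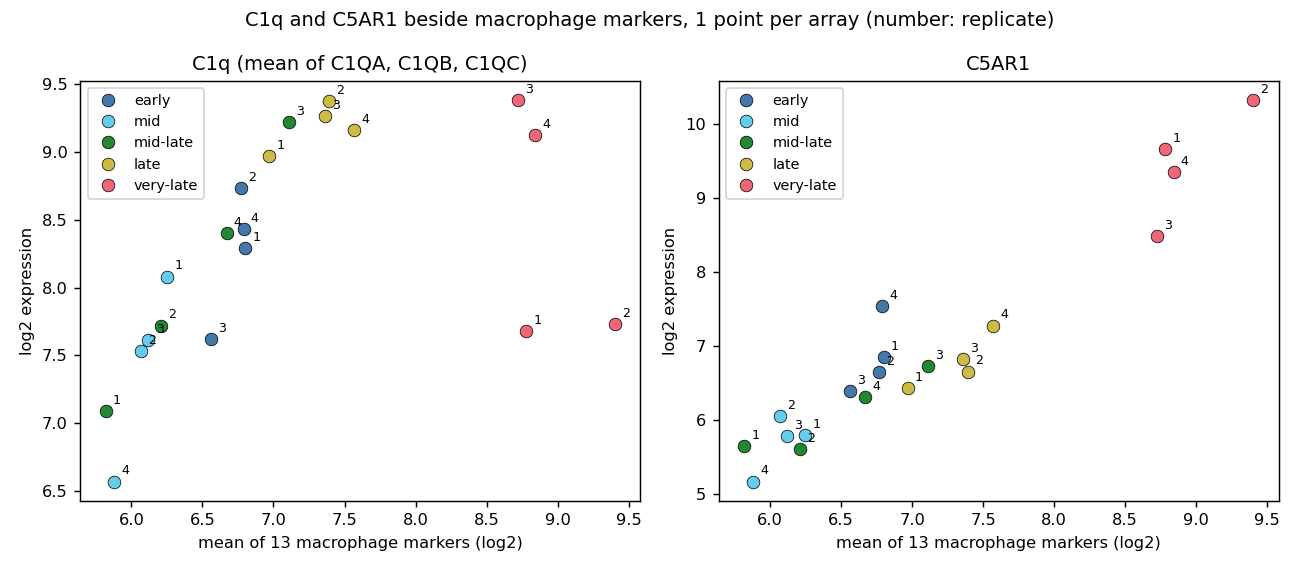
Mean of the 3 C1q chains (left) and C5AR1 (right) in log2 units against the mean of 13 macrophage markers, with 1 point per array, coloured by stage and numbered by replicate. The lowest C1q and marker levels lie on the same arrays, and on the very-late arrays, where the markers are highest, replicates 1 and 2 have a C1q mean of 7.68 and 7.73, while C5AR1 is highest where the markers are highest.

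Neutrophils also carry C5AR1. Of 7 measured neutrophil markers 1 rose from late to very-late, where 21.4% of genes passed: CAMP, the cathelicidin precursor, by 1.35 ± 0.16 (SE; limma, adjusted p = 7.80e-06). CSF3R, which neutrophils need for their growth factor, was at means of 4.03 to 4.30, no higher than the 95th percentile of the viral probe sets, and rose by 0.27 ± 0.09 from early to very-late (adjusted p = 0.0493), when 2 of the 7 rose (28.9% of genes passed). The list's mean per array lay at 3.78 to 4.21 up to late and 4.1 to 4.76 at very-late. The adipocyte markers ADIPOQ and LEP, relevant to CFD, were at means of 4.70 to 5.03 and 4.96 to 5.07, while FABP4, a fatty acid carrier, was at 3.91 ± 0.24 (SD, n = 4) at late and 5.32 ± 1.02 at very-late. The difference of 1.41 ± 0.65 (SE) for FABP4 did not pass (limma, adjusted p = 0.191). By representative probe sets, 0 of the 3 measured adipocyte markers passed the F test, with 0 at an unadjusted p under 0.05. From late to very-late 0 passed, with 1 at an unadjusted p under 0.05. Of the 3 probe sets of ADIPOQ, however, 1 passed the F test. Of 5 fibroblast genes 2 fell and 0 rose from late to very-late (21.4% of genes passed), a step in which C7 did not pass. From early to very-late, where C7 passed, 2 fell and 0 rose (28.9% of genes), and from early to late 1 rose and 0 fell (12.3%). Which cells gave the C7 signal was not tested.

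Other genes of the pathway were read from a list of 45, 27 of which could be measured by a probe set of a single symbol. C3, C2 and C1R were among those not analysed here. In limma's F test 10 of the 27 passed, where 33.6% of genes did. From late to very-late 4 rose and 2 fell, where 21.4% of genes passed. From early to very-late 3 rose and 3 fell (28.9% of genes), and from early to late 1 rose and 4 fell (12.3% of genes). The median differences over the 27 were 0.03, 0.02 and 0.01. The changes of the list thus ran in both directions.

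Among proteases, C1S, the effector of the classical pathway, followed C1q in its means up to the late stage. It was at 9.04 ± 0.60 (SD, n = 4) at early, 8.49 ± 0.58 at mid and 10.15 ± 0.35 at late, and rose by 1.11 ± 0.32 (SE) from early to late (limma, adjusted p = 0.0402). At very-late C1S was still at 9.94 ± 0.26, while the mean of the 3 C1q chains was 9.19 at late and 8.48 at very-late. MASP1, a protease of the lectin pathway, was highest at mid (6.69 ± 0.19) and fell by 1.17 ± 0.38 from late to very-late (adjusted p = 0.0464), on 1 probe set, and only 1 of its 3 probe sets passed the F test.

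Among receptors, ITGB2, the beta chain shared by the integrins that bind C3 fragments and by other leukocyte integrins, rose by 3.17 ± 0.27 (SE) from late to very-late (limma, adjusted p = 2.68e-07). Its partner chain ITGAM stayed near the background, at means of 3.95 to 4.06. VSIG4, a complement receptor of tissue macrophages, rose by 1.62 ± 0.44 (adjusted p = 0.0175), and CR1 by 0.41 ± 0.10 (adjusted p = 0.00600) to a mean of only 3.80.

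The inhibitors differed from each other. CD55, which speeds the decay of convertases on the cell surface, fell by 1.56 ± 0.28 (SE) from early to late (limma, adjusted p = 0.00193) and was at 7.09 ± 0.49 (SD, n = 4) at very-late. These values are of its brightest probe set, and 4 of its 6 probe sets passed the F test. VTN, vitronectin, which blocks the terminal complex, fell by 1.30 ± 0.22 from early to very-late (adjusted p = 0.000344). SERPING1, the inhibitor of C1r and C1s, fell by 0.91 ± 0.18 from early to mid-late (adjusted p = 0.00860) and rose by 0.90 ± 0.18 from late to very-late (adjusted p = 0.00181). C1QBP, a mostly mitochondrial protein first found by its binding to C1q, fell by 0.81 ± 0.15 from late to very-late (adjusted p = 0.00108). Only 1 of its 2 probe sets passed the F test. The terminal components other than C7 gave little or no signal: C5, C8A and C9 had all stage means below the background of 3.42, C8B and C8G lay at 3.83 to 4.07, and C6 at 4.04 to 4.26. C7 was thus the 1 measured terminal component whose stage means all exceeded the 95th percentile of the viral probe sets.

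**Figure D5:**
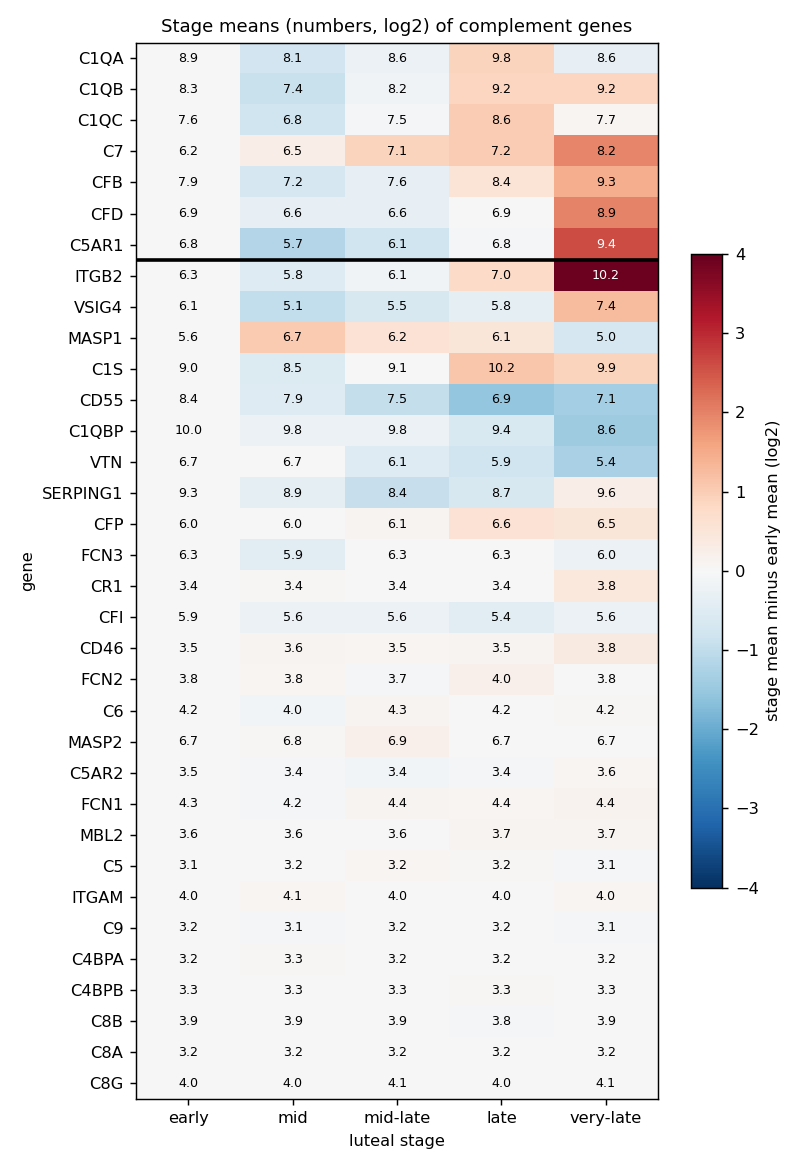
Stage means of the 7 genes (above the line) and of 27 other complement genes (below it, in order of their range), as numbers in log2 units, with colour for the difference from the early mean on a scale from -4 to 4. The strongest colour is ITGB2 at very-late, and most genes in the lower part of the plot stay near the background at all stages.

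Genes with the most similar profile were sought among the 2006 genes with a range of stage means of at least 1, by Pearson correlation over the 20 arrays. For the mean of the 3 C1q chains the nearest was FOLR2 (r = 0.823), which was at 6.14 ± 0.13 (SD, n = 4) at late and 6.36 ± 0.50 at very-late. LRRC3B (0.737), GPM6A (0.716), C1S (0.714), ERAP2 (0.701) and MS4A4A (0.691) followed. C5AR1 was most like FERMT3, an activator of leukocyte integrins (0.978), LOC716425 (0.977) and CD48 (0.974), and CFB was most like LCP1, a leukocyte actin bundler (0.955), the cathepsin CTSS (0.95) and CD53 (0.945). CFD was nearest to APEH (0.937), C1H1orf127 (0.930) and the lysosomal cystine carrier CTNS (0.927), and C7 to TRIM22 (0.887), AHNAK (0.876) and FLI1 (0.875). Among these 2006 genes, the highest correlation of C1q was thus lower than that of each of the other 4. The C1q chains, left out of the search, correlated with each other at 0.83 to 0.96, by probe set 1 of C1QA.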

How the data were processed

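RNA from 20 corpora lutea was labelled with biotin from 2 µg in 1 round, per the labels' protocols. The deposited values are log2 expression that the authors made with RMA, per the submitters' processing notes. The version, chip definition and filters are not given in the sources used here. Values were used as deposited. The 158 control probe sets among 52865 were not tested. In R 4.3.3, limma 3.58.1 fitted 5 stage means to all arrays (15 residual and 2.75 prior degrees of freedom). It tested any difference and 7 two-sided comparisons, with Benjamini-Hochberg adjustment over 52707 probe sets. The tests weigh differences of stage means against the spread between these glands within stages. The procedure was tested on simulated data.

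All probe sets of the 7 genes were reported. Genes of the lists were read by their representative probe set. Other complement genes were named if they passed the F test with a range of stage means of at least 1, and the most similar genes by rank (6 for C1q, 3 for each other gene). Up to 3 genes of a marker list were named by range of stage means. CR1, ITGAM, C5AR2, the weak terminal components, CSF3R, ADIPOQ, LEP, FABP4, CD68, CSF1R and MRC1 were named after their values were seen. Genes and lists were chosen with earlier results of these data known. Symbols came from the platform's annotation, updated by gene identifier.

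Replicate numbers gave no sign of pairing arrays. Deviations from stage means correlated at -0.21 to 0.21 (median -0.02) between same-numbered arrays of different stages. Between arrays of other numbers they correlated at -0.23 to 0.39 (median -0.01). Alternatives were a filter on dim probe sets, cyclic loess, a trended robust prior, array weights, the replicate block, 2-stage fits and leaving out each array. Fits without very-late replicates 1 and 2, with the mitochondrial group in the model and on the 13 arrays of the high group were chosen after seeing the data.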

Additional observations from a re-analysis of the deposited data

Results flagged for a closer look

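Of 55 groups of 4 arrays (11 probe sets at 5 stages), 2 held an array whose gap to its nearest neighbour exceeded Dixon's 95% critical share of the group's range. Chance gives about 1 in 20 such groups. On CFB probe set 2, early replicate 1 was at 6.15, while the other early arrays lay at 4.1 to 4.38. On C1QA probe set 2, late replicate 1 was at 7.23, below the others at 8.01 to 8.06.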

How the results depend on the processing

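The counts of called probe sets of the 7 genes from late to very-late (5) and from early to very-late (5) ranged from 4 to 6 and from 5 to 6 over all alternatives, and the F test's 7 from 6 to 9. From early to mid the count of 0 became 1 with array weights, 1 in the fit on brighter probe sets and 1 when very-late replicates 1 and 2 were dropped (0 to 1 when 1 array was left out). From early to mid-late the 1 call ranged from 0 to 1 when 1 array was left out. From early to late the 1 call became 5 on the 8 arrays of the 2 stages and 3 on the 13 arrays of the high mitochondrial group (1 to 2 when 1 array was left out). For the other complement genes, the 5 calls from early to late became 2 with the mitochondrial term and 2 on the 13 arrays (1 to 6 when 1 array was left out), and the 6 from late to very-late became 3 on the 13 arrays (4 to 6). Of 348 refits of the 12 called differences 342 kept the call and 0 reversed, the 6 lost being those of C1QA probe set 2 and CFB given above. Of 189 refits of the 7 F tests 186 did. The 3 lost were those of C1QB given above and C7 without very-late replicates 1 and 2 (adjusted p = 0.101). C1QB passed from early to very-late without those arrays (1.55, adjusted p = 0.0345, against 0.85, adjusted p = 0.219, with them). They were its lowest very-late arrays, so leaving them out had to raise its very-late mean, and this fit was chosen after seeing the data.

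Over all probe sets, the 191 calls from early to mid ranged from 19 to 614, the 1964 from early to mid-late from 806 to 3758, the 3994 from early to late from 2588 to 5433, the 9833 from early to very-late from 6178 to 10172 and the 7262 from late to very-late from 4574 to 7457. The 6 from mid to mid-late ranged from 1 to 26 and the 6 from mid-late to late from 0 to 185. With the replicate block the 7 genes kept counts of 7 in the F test and 5 in each very-late comparison, the block changed no call of theirs, and the 191 became 81. Values near the viral background, as for CFB probe sets 2 and 3, limit what can be read of a change.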

Other observations

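Of 7 T cell markers 2 were measured. CD4, a receptor of helper T cells that macrophages carry too, was at 5.45 ± 0.03 (SD, n = 4) at late and 6.19 ± 0.70 at very-late, and CD8A, of cytotoxic T cells, at 4.57 ± 0.07 and 5.17 ± 0.47. In limma's test over all probe sets CD8A rose from late to very-late (adjusted p = 0.0131), CD4 did not pass (adjusted p = 0.0740), and both rose from early (by 0.72 and 1.18; 28.9% of all genes passed). Only 1 of the 2 probe sets of CD8A passed the F test. Of 3 B cell markers 0 passed limma's F test, with 0 at an unadjusted p under 0.05, and their mean per array was 3.81 to 4.12. In limma's F test, which 33.6% of all genes passed, 4 of 8 endothelial genes, 1 of 3 smooth muscle genes, 2 of 2 erythrocyte genes and 3 of 3 luteal steroid genes passed, the last all lower at very-late than at late (median -4.22).

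Probe set 2 of C1QA, which went its own way, was compared with all other genes after its values were seen. The nearest of 2006 genes by Pearson correlation over the 20 arrays were MKRN1 (0.898), CYP19A1, the aromatase of luteal cells (0.892), and NAMPT (0.892). CYP19A1 had stage means of 9.23, 11.19, 11.41, 11.26 and 6.24 from early to very-late.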
